A study of Mus musculus with 29 samples.

Results

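Cxcl1, Cxcl2, Cxcl9, Cxcl10, Cxcl14 and Cxcl16 encode CXC chemokines, small proteins that guide leukocytes, and their transcripts were followed in microglia sorted from mouse brain. They were taken by symbol from a table of read counts for 36982 genes. All 6 genes were found there and all 6 passed the filter on low counts that left 16632 genes for testing. The study followed 2 intraperitoneal injections given 5 weeks apart to male C57BL/6J mice, the earlier one at 10 weeks of age, and brains were taken 3 h after the later one at 15 weeks. Each injection held either 1 mg/kg lipopolysaccharide (LPS, an outer membrane component of Escherichia coli that Toll-like receptor 4 detects) or saline. From 1 week after the earlier injection some mice were gavaged on 5 days with the CSF1R inhibitor BLZ945, the daily dose being 169 mg/kg, and the others with its cyclodextrin vehicle. Microglia need CSF1R signalling to survive, and blocking it removes most of them until the brain is repopulated after the drug is stopped.

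The groups are named by earlier injection, depletion and later injection. LBL mice (n = 5) had LPS, BLZ945 and LPS. LL mice (n = 5) had LPS, vehicle and LPS. PBL mice (n = 5) had saline, BLZ945 and LPS. PL mice (n = 4) had saline, vehicle and LPS. PBP mice (n = 5) had saline, BLZ945 and saline, and PP mice (n = 5) had saline, vehicle and saline. The 29 libraries are bulk: each holds the RNA of all cells sorted as live, high in CD11b, intermediate in CD45 and free of surface Ly6C, so that fewer cells of a type and less RNA per cell cannot be told apart. The labels give 1 sample per library and say no more about the animals, and the p-values rest on the variation among these samples, which may be partly technical.

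CXC chemokines are secreted by cells that sense infection or injury and act on G protein-coupled receptors of leukocytes. CXCL1 and CXCL2 attract neutrophils through CXCR2, and their genes are textbook targets of NF-kB downstream of Toll-like receptor 4. CXCL9 and CXCL10 attract activated T cells and natural killer cells through CXCR3 and are induced by interferons. CXCL16 is made as a membrane protein that the proteases ADAM10 and ADAM17 shed, and binds CXCR6. CXCL14 is an orphan chemokine with no agreed receptor, expressed by some neurons and epithelial cells.

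Promoter sequence is shown for the 4 genes of the set that LPS moved most on the log2 scale, because these windows hold short matches to the cores of NF-kB and interferon response elements. The promoter table matched 5 of the 6 genes by symbol. Bases are from RefSeq on GRCm38.p6, read 5′ to 3′ on the strand of the gene, and positions count back from the transcription start. Capitals mark the matches described beneath.
Cxcl1, chr5:90891135-90891244, plus strand, -110 to -1: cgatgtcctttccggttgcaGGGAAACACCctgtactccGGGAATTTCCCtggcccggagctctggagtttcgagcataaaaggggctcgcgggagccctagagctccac
Cxcl2, chr5:90903789-90903898, plus strand, -110 to -1: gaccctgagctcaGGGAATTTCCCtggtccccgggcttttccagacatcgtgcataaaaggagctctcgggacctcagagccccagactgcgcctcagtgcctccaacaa
Cxcl10, chr5:92348980-92349139, minus strand, -250 to -91: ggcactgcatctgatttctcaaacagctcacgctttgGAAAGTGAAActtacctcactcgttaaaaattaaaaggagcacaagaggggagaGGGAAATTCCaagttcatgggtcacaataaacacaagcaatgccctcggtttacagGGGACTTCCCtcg
Cxcl9, chr5:92328180-92328229, minus strand, 50 bases from -150: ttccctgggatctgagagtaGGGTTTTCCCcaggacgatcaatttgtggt

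The kappa B core was searched as GGGANNNNCC on both strands, a pattern that 20.7% of 32851 promoters of the same length hold. Cxcl1 held it at -90 to -81 and at -71 to -62, the second overlapping a match on the other strand at -70 to -61, and Cxcl2 at -97 to -88, overlapping a match on the other strand at -96 to -87. The longest run shared by the Cxcl1 and Cxcl2 windows was the 14 bases GGGAATTTCCCTGG, which spans that pair of matches in each gene. Cxcl10 held the core at -159 to -150 and, on both strands, at -103 to -94, and Cxcl9 held it on the other strand at -130 to -121. The interferon-stimulated response element core, searched as GAAANNGAAA on both strands, is held by 3.44% of promoters, and Cxcl10 had it at -213 to -204. Cxcl14 held no kappa B core, a match to GAAANNGAAA at -172 to -163, and a match to TTCNNNGAA, the gamma-activated site core that 8.30% of promoters hold, at -191 to -183. These are matches of letters, and no factor binding was measured.

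Library totals lay between 5670450 and 12671476 counts, with a median of 7597841. Levels are given as CPM, the counts per 1000000 counts of library after TMM scaling of library sizes. The summed level of 9 microglial markers was 33300 to 69700 CPM and none of the 9 was at 0 in a group, whereas 8 lymphocyte markers summed to at most 1.36 CPM. Sorter and sorting day nearly coincided with the groups: PP, PL and 4 of 5 PBP libraries were sorted on a MoFlo Astrios, and LBL, LL, PBL and PBP replicate 5 on a MoFlo XDP. PBP replicate 5 also lay apart on the first principal component, at 1.83, where the other PBP libraries lay between 64.7 and 86.4. Sums of 8 neutrophil markers were 0.804 to 4.73 CPM in LBL, 0.584 to 35.1 in LL, 127 to 484 in PBL, 1.24 to 21.1 in PL, 0 to 6.52 in PBP and 0 to 7.85 in PP. Sums of 8 astrocyte markers were 660 to 754 CPM in LBL, 730 to 878 in LL, 683 to 894 in PBL, 748 to 1020 in PL, 383 to 451 in PBP and 437 to 589 in PP. Slc1a3 alone made up most of each astrocyte sum, with medians of 753 CPM in PL and 623 CPM in PBL. Over the 8 astrocyte markers the median log2 fold change in PBL against PL was 1.98, so the sums follow Slc1a3 rather than the list. The part that these other cells had in the results was not tested.

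All of the 6 genes but Cxcl14 were higher 3 h after a first LPS injection, with or without depletion. In PL against PP, 5 of 6 were called higher by edgeR's quasi-likelihood test at an adjusted p under 0.05, where 14.2% of all genes tested were called higher. In PBL against PBP it was again 5 of 6, against 21.5% of all genes. The median log2 fold change of the 6 was 4.50 in PL against PP and 4.59 in PBL against PBP, and that of all genes tested was -0.001 and 0.005.

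The same 5 genes were lower after a repeated LPS injection than after a first one. In LL against PL, 5 of 6 were called lower, where 2.03% of all genes were, and in LBL against PBL also 5 of 6, where 4.00% were. The medians of the 6 were -3.74 and -3.33 on the log2 scale, and those of all genes 0.012 and 0.013. Both repopulated groups, LBL and PBL, were sorted on the XDP but on different days. A sorter term cancels between them, so their 5 calls had to stay with sorter in the fit, and sorting day was not adjusted for. LL was sorted on the XDP and PL on the Astrios, so that group and sorter cannot be told apart there, and with sorter in the fit 0 of 6 were called in LL against PL.

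**Figure D1:**
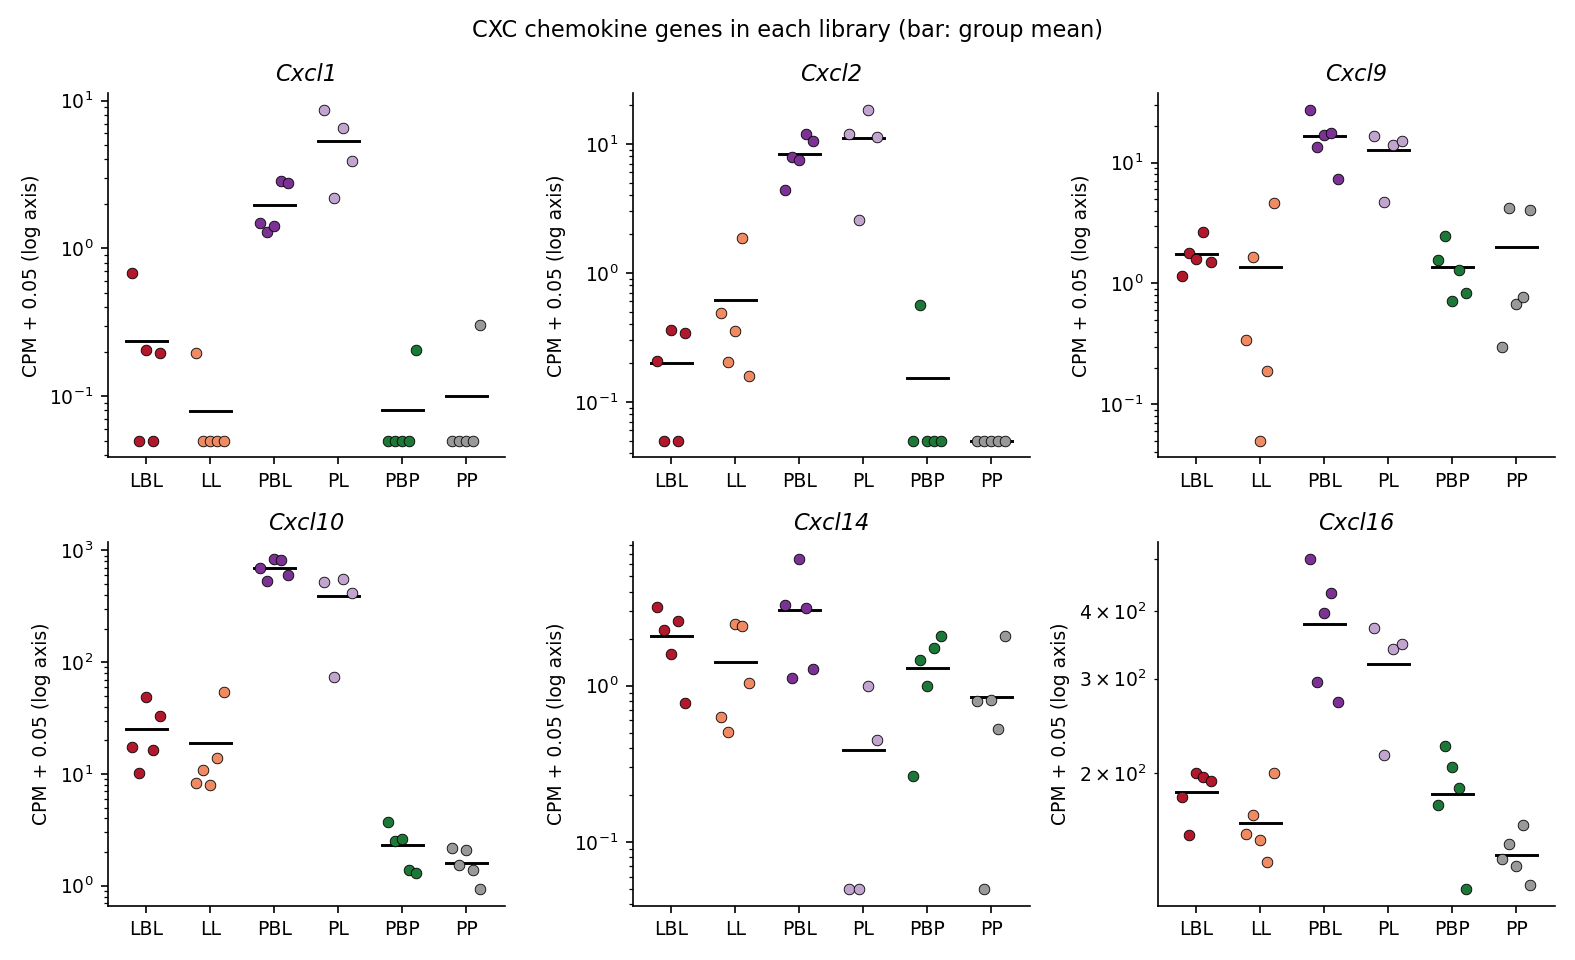
Level of each gene in each library, as CPM + 0.05 on a log axis, by group; points are libraries and bars are group means. For Cxcl1, Cxcl2, Cxcl9 and Cxcl10 every PBL and PL library lies above every library of the other groups. For Cxcl9 this is narrow, with PL replicate 2 at 4.634 CPM and LL replicate 5 at 4.6 CPM. How many of all genes separate in this way was not counted. For Cxcl16 PL replicate 2, at 216 CPM, lies below PBP replicate 2, at 225 CPM, and Cxcl14 does not follow this order.

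Cxcl1 and Cxcl2, the neutrophil attractants, are neighbours on chromosome 5, transcribed from the same strand with 10756 bases between them. Cxcl1 (ENSMUSG00000029380) was at 0.631, 0, 0.155, 0 and 0.145 CPM in LBL and at 0.146, 0, 0, 0 and 0 CPM in LL. It was at 1.43, 1.24, 1.36, 2.79 and 2.73 CPM in PBL and at 8.59, 2.14, 6.51 and 3.84 CPM in PL. PBP libraries had 0, 0, 0, 0 and 0.155 CPM and PP libraries 0, 0, 0, 0 and 0.252 CPM. Cxcl1 was therefore all but absent from the saline groups, present in every library after a first LPS injection, and at 0 to 4 counts a library after a repeated one.

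Because the saline groups held so few reads, the ratios rest on sums with wide counting intervals. Summed over libraries, Cxcl1 had 165 counts in PL and 2 in PP, a ratio of 110 at equal depth with a 95% exact interval of 30.1 to 919 that covers counting error only. The 61 counts in PBL and 1 in PBP gave a ratio of 83.2 (14.4 to 3340). The fitted log2 fold changes were 6.32 (SE 0.914, adjusted p = 1.36e-06, edgeR) in PL against PP and 5.57 (SE 0.973, adjusted p = 1.88e-05) in PBL against PBP. Without PP replicate 5 and without PBP replicate 5, which held the only saline counts of their groups, they were 8.35 and 6.91.

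A repeated injection left 1 Cxcl1 count in LL, against 165 in PL, so that LL was 239 times lower (interval 42.2 to 9480). LBL held 6 counts and PBL 61, which made LBL 12.7 times lower (5.53 to 36.1). The fitted values were -7.04 (SE 0.973, adjusted p = 1.62e-05, edgeR) in LL against PL, and -3.41 (SE 0.798, adjusted p = 0.00631) in LBL against PBL. Of the 6 LBL counts, 4 were in replicate 1, and without it the value in LBL against PBL was -4.59.

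Cxcl2 (ENSMUSG00000058427) was at 0.158, 0, 0.310, 0 and 0.289 CPM in LBL and at 0.438, 0.153, 0.303, 1.80 and 0.11 CPM in LL. Its levels were 4.30, 7.82, 7.48, 11.8 and 10.4 CPM in PBL and 11.8, 2.50, 18.2 and 11.3 CPM in PL. In saline mice it was at 0, 0.514, 0, 0 and 0 CPM in PBP and at 0 in all 5 PP libraries. No PL or PBL library overlapped any library of the other 4 groups.

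With 348 counts in PL and 0 in PP, Cxcl2 was at least 155-fold higher in PL, taking 3 counts over the group as the limit of a count of 0. The fitted log2 fold change was 9.41 (SE 1.09, adjusted p = 4.34e-08, edgeR), a value that depends on the fit because PP held no count and that was 7.28 with limma voom. PBL held 264 counts and PBP 4, a difference of 6.22 (SE 0.827, adjusted p = 3.9e-07). Leaving out PBP replicate 2, which held all 4 PBP counts, gave 9.02.

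After a repeated injection Cxcl2 was lower in LL against PL (log2 fold change -4.34, SE 0.692, adjusted p = 0.000155, edgeR) and in LBL against PBL (-5.81, SE 0.807, adjusted p = 1.1e-05). All 5 LL libraries held Cxcl2 reads, 21 in all, whereas PP held 0, so that LL was at least 6.48-fold higher (fitted log2 fold change 5.07, SE 1.37, adjusted p = 0.00519). Of those 21 counts 13 came from LL replicate 4, without which the fitted value was 3.94 in LL against PP (adjusted p = 0.033) and -5.47 in LL against PL, and limma voom did not call the gene here (2.56, adjusted p = 0.117). LL and PP were sorted on different instruments, and with sorter in the fit the gene was not called either (8.08, adjusted p = 0.143). LBL and PBP held 5 and 4 counts and were not called different (0.41, SE 1.19, adjusted p = 0.829).

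Cxcl2 and Cxcl3 are close relatives and 5.84% of the 50-base words in Cxcl2 transcripts also occur in Cxcl3, so some reads could be split between them. Cxcl3 held 8 counts in all 29 libraries, and Cxcl2 held 264 in PBL alone.

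Cxcl9 and Cxcl10 lie close together on chromosome 5, on the minus strand, and their products share the receptor CXCR3. Cxcl9 (ENSMUSG00000029417) was at 1.104, 1.75, 1.55, 2.64 and 1.45 CPM in LBL and at 0.292, 1.61, 0, 0.138 and 4.6 CPM in LL. It reached 27.2, 13.3, 17.0, 17.5 and 7.24 CPM in PBL and 16.7, 4.63, 14.1 and 15.0 CPM in PL. PBP libraries had 1.51, 2.44, 0.672, 1.25 and 0.777 CPM and PP libraries 0.248, 4.18, 0.633, 0.720 and 4.03 CPM. The lowest PL library stood just above the highest LL and PP libraries.

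The log2 fold change of Cxcl9 was 2.69 (SE 0.67, adjusted p = 0.00288, edgeR) in PL against PP and 3.60 (SE 0.678, adjusted p = 8.37e-05) in PBL against PBP. It was -3.14 (SE 0.683, adjusted p = 0.00663) in LL against PL and -3.24 (SE 0.664, adjusted p = 0.0022) in LBL against PBL. Without LL replicate 5 the value in LL against PL was -4.31. Repeated LPS left Cxcl9 at levels not called different from saline: 66 counts in LL and 76 in PP gave -0.45 (SE 0.693, adjusted p = 0.655), and 68 in LBL and 57 in PBP gave 0.35 (SE 0.709, adjusted p = 0.747). The 95% intervals were wide, from -1.87 to 0.96 in LL against PP and from -1.1 to 1.80 in LBL against PBP on the log2 scale.

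Cxcl10 (ENSMUSG00000034855) had 17.5, 10.1, 48.7, 16.2 and 32.8 CPM in LBL and 8.18, 10.8, 7.89, 14.0 and 54.0 CPM in LL. In PBL it stood at 690, 537, 847, 815 and 599 CPM and in PL at 523, 73.4, 550 and 419 CPM. Saline libraries had 3.68, 2.44, 2.55, 1.34 and 1.24 CPM in PBP and 2.11, 1.48, 2.03, 1.32 and 0.882 CPM in PP. These groups fell into 3 tiers without overlap: PBL and PL at the top, LBL and LL between, and PBP and PP at the bottom.

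Cxcl10 was higher by 7.95 on the log2 scale in PL against PP (SE 0.718, adjusted p = 3.94e-09, edgeR), the 14th highest of all genes tested, and by 8.26 in PBL against PBP (SE 0.694, adjusted p = 7.79e-10). It was lower in LL against PL (-4.35, SE 0.558, adjusted p = 2.75e-05) and in LBL against PBL (-4.82, SE 0.557, adjusted p = 2.66e-06), the 10th and 13th lowest values. Cxcl10 still stood above saline after repeated LPS, by 3.61 in LL against PP (SE 0.711, adjusted p = 0.000426) and by 3.44 in LBL against PBP (SE 0.662, adjusted p = 0.000322). Both comparisons with saline set libraries of different sorters against each other, apart from PBP replicate 5, and with sorter in the fit neither was called (4.59, adjusted p = 0.173, in LL against PP and 4.30, adjusted p = 0.1, in LBL against PBP). Without LL replicate 5, the highest LL library, the values were 2.70 in LL against PP (adjusted p = 0.00239) and -5.25 in LL against PL.

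In LL against PP, 2 of the 6 genes were called higher, Cxcl2 and Cxcl10, where 18.9% of all genes tested were. In LBL against PBP it was 1 of 6, Cxcl10, where 14.6% of all genes were. Those shares are near the background, so the counts themselves set nothing apart; the values above are each gene's own.

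Part of Cxcl10 and part of Cxcl16 lie on the other strand of another gene, and the strand setting of the counting is not given in the sources used here. Art3, which codes for an ADP-ribosyltransferase family member, shares 3.59% of the 50-base words of Cxcl10 and was at 109.6 ± 23.6 CPM in PBL (SD, n = 5) and 1.21 ± 0.611 CPM in PBP (SD, n = 5). Its log2 fold change was 6.50 in PBL against PBP and -4.46 in LBL against PBL, in the directions of Cxcl10. Reads from the stretch that such genes share cannot be told apart without strand.

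Cxcl16 (ENSMUSG00000018920, chromosome 11) differed from the others in being well expressed in saline mice. It had 181, 154, 200, 197 and 193 CPM in LBL and 154, 167, 150, 137 and 200 CPM in LL. It had 502, 296, 397, 433 and 271 CPM in PBL and 372, 216, 340 and 348 CPM in PL. PBP libraries were at 174, 225, 206, 188 and 122 CPM and PP libraries at 139, 147, 134, 160 and 124 CPM. The lowest PL library, replicate 2 at 216 CPM, lay above every LL and PP library, and the lowest PBL library, at 271 CPM, above every LBL and PBP library.

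The change of Cxcl16 was modest in size and measured tightly. Its log2 fold change was 1.18 in PL against PP (SE 0.163, adjusted p = 5.73e-07, edgeR) and 1.05 in PBL against PBP (SE 0.155, adjusted p = 1.21e-06). It was -0.98 in LL against PL (SE 0.163, adjusted p = 0.000178) and -1.04 in LBL against PBL (SE 0.155, adjusted p = 2e-05). The level after repeated LPS was not called different from saline: the difference was 0.01 in LBL against PBP (95% interval -0.30 to 0.33) and 0.20 in LL against PP (-0.12 to 0.51). With sorter in the fit these differences were 0.60 (adjusted p = 0.146) and 0.90 (adjusted p = 0.0573), so closeness to saline depends on that setting. Zmynd15, which overlaps Cxcl16 on the other strand and shares 16.9% of its 50-base words, changed by 1.13 in PL against PP and by -0.86 in LL against PL.

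Adam10 and Adam17, whose proteases shed CXCL16 from the cell surface, were abundant and changed little. Adam10 lay between 359 and 537 CPM and Adam17 between 232 and 406 CPM over all libraries. Neither was called in PL against PP or LL against PL by edgeR, with log2 fold changes of 0.05 and -0.06 in the first and -0.11 and -0.34 in the second. Adam10 was called lower in PBL against PBP (-0.26, adjusted p = 0.0353), and Adam17 in LL against PP (-0.41, adjusted p = 0.00412) and LBL against PBP (-0.31, adjusted p = 0.0278).

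**Figure D2:**
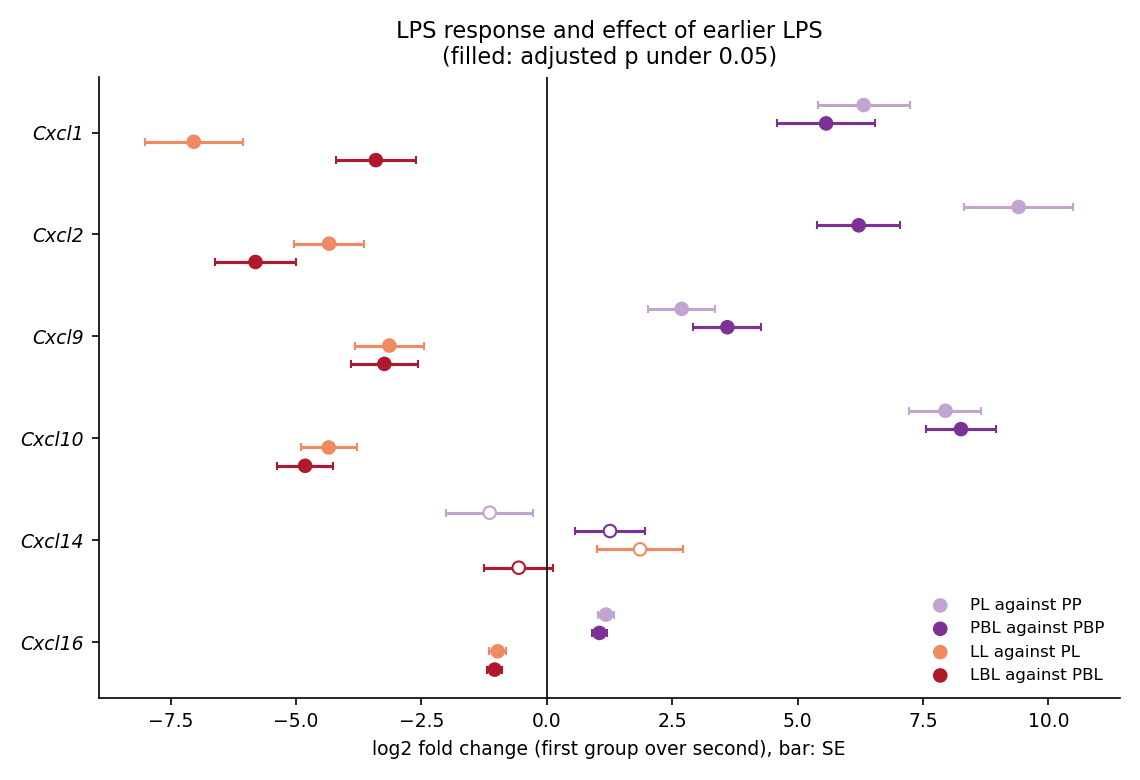
Log2 fold changes with their SE for the 6 genes in PL against PP, PBL against PBP, LL against PL and LBL against PBL; filled points were called at an adjusted p under 0.05. Cxcl2 lies at 9.41 and Cxcl10 at 7.95 in PL against PP, the Cxcl2 value being set against a group with 0 counts, Cxcl16 lies near 1 and -1, and the points of Cxcl14 are open.

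Cxcl14 (ENSMUSG00000021508, chromosome 13) did not follow the LPS response. Its levels were 3.16, 2.24, 1.55, 2.53 and 0.723 CPM in LBL and 0.584, 0.459, 2.43, 2.35 and 0.986 CPM in LL. They were 3.23, 1.07, 6.46, 3.10 and 1.23 CPM in PBL and 0, 0, 0.947 and 0.397 CPM in PL. PBP libraries had 0.216, 1.42, 0.941, 1.70 and 2.02 CPM and PP libraries 0.743, 0, 0.759, 0.480 and 2.02 CPM. PBL and PL did not overlap, whereas every other pair of groups tested did.

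Cxcl14 was not called in PL against PP (-1.14, SE 0.873, adjusted p = 0.364, edgeR), in PBL against PBP (1.26, SE 0.70, adjusted p = 0.146), in LL against PL (1.86, SE 0.86, adjusted p = 0.278) or in LBL against PBL (-0.56, SE 0.683, adjusted p = 0.738). It was the 1 of 6 genes called higher in PBL against PL, where 11.0% of all genes were called higher, at 3.03 on the log2 scale (SE 0.861, adjusted p = 0.0131). That value rests on 91 counts in PBL and 11 in PL, and ran from 2.57 to 4.30 as single libraries were left out. PBL and PL were sorted on different instruments, and with sorter in the fit the value was 2.12 (adjusted p = 0.908). Neuron markers moved the same way: 7 of 8 were called higher in PBL against PL, with a median log2 fold change of 2.28, and their summed level was 98.4 to 192 CPM in PBL and 21.9 to 43.6 CPM in PL. Other lists moved as well in PBL against PL. Of 8 astrocyte markers 5 were called higher and 1 lower, and of 6 oligodendrocyte markers 3 higher and 1 lower. Neutrophil markers were called higher, 7 of 7, and 6 of 8 border-associated macrophage markers lower, beside 11.1% of all genes called lower. In LL against PP 8 of 8 neuron markers were called higher, where 18.9% of all genes were, and Cxcl14 was not called (0.72). The part of neuron or other transcripts in the Cxcl14 value was not tested.

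**Figure D3:**
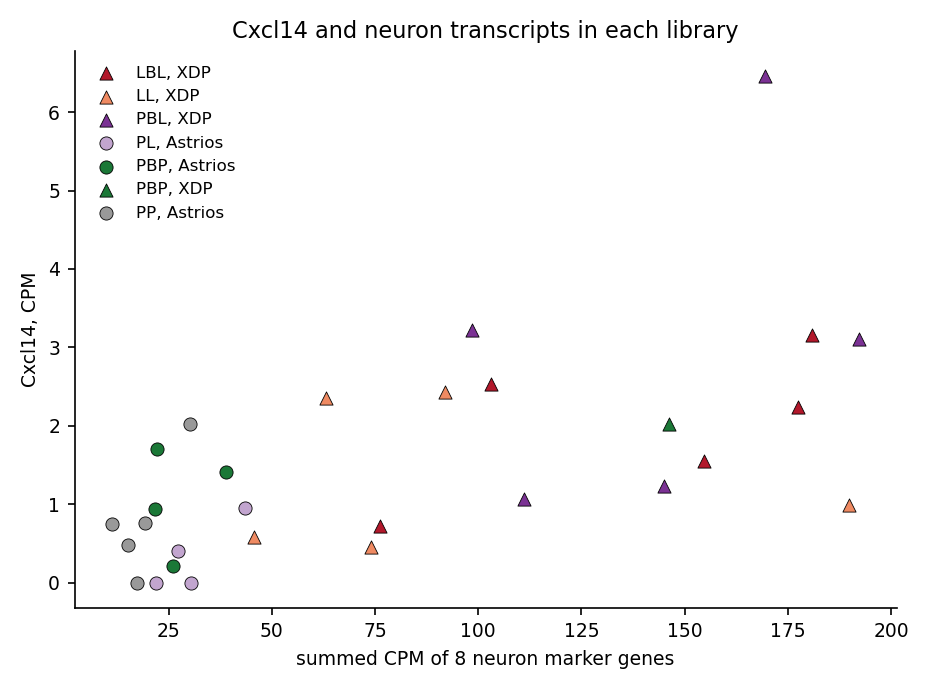
Cxcl14 level in CPM against the summed CPM of 8 neuron markers in each of the 29 libraries, with circles for the Astrios and triangles for the XDP sorter. Astrios libraries reach 43.6 CPM of neuron markers and XDP libraries begin at 45.7 CPM, and the highest Cxcl14 levels, up to 6.46 CPM, are in XDP libraries.

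None of the 6 genes was called between depleted and undepleted mice, either with saline at both injections or with LPS at both. Few of all genes were called in these comparisons, so 0 of 6 does not set the 6 genes apart. In PBP against PP 0 of 6 were called by edgeR, by DESeq2 and by limma voom, where 0.529% of all genes were called by edgeR. Cxcl16 had an unadjusted p of 0.0203 by edgeR there (log2 fold change 0.38, 95% interval 0.06 to 0.69, adjusted p = 0.307). Intervals in PBP against PP were wide for genes with few counts, so large changes are not excluded. They ran from -3.27 to 1.85 for Cxcl1, from -0.44 to 6.05 for Cxcl2 and from -1.36 to 2.41 for Cxcl10. In LBL against LL 0 of 6 were called by any of the 3 tools and 0 had an unadjusted p under 0.05 by edgeR, where edgeR called 1.21% of all genes. DESeq2 gave no adjusted p to Cxcl1, Cxcl2 and Cxcl14 there and so could not call them. Intervals in LBL against LL were also wide for such genes, from -0.18 to 4.54 for Cxcl1 and from -3.77 to 0.05 for Cxcl2. The interval there was narrow for Cxcl16, from -0.12 to 0.51.

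Between PBL and PL, Cxcl1 had the larger difference of the 2 neutrophil attractants. Its level averaged 1.91 ± 0.780 CPM in PBL (SD, n = 5) and 5.27 ± 2.85 CPM in PL (SD, n = 4), with overlapping libraries (log2 fold change -1.45, SE 0.66, adjusted p = 0.108, edgeR). Cxcl2 averaged 8.36 ± 2.89 CPM in PBL and 11.0 ± 6.46 CPM in PL (-0.39, SE 0.578, adjusted p = 0.656). Cxcl10 averaged 698 ± 134 CPM in PBL and 391 ± 219 CPM in PL (0.83, SE 0.501, adjusted p = 0.236). Limma voom called Cxcl1 (-1.38, adjusted p = 0.0169) and Cxcl10 (1.11, adjusted p = 0.0149) as well as Cxcl14. All PBL libraries were sorted on the XDP and all PL libraries on the Astrios. With sorter in the edgeR fit, estimated through PBP replicate 5 alone, Cxcl1 was at -4.86 (adjusted p = 0.852) and Cxcl2 at 2.63 (adjusted p = 0.961). Neutrophil markers were called higher in PBL, 7 of 7 tested, where 11.0% of all genes were called higher, and their part was not tested.

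The difference between the 2 LPS responses and the difference between the 2 effects of earlier LPS were tested directly, and 0 of 6 genes were called in either by edgeR, DESeq2 or limma voom. In the difference of LPS responses DESeq2 gave no adjusted p to Cxcl1, Cxcl2, Cxcl9 and Cxcl14 and so could not call them. For the LPS response, PBL over PBP minus PL over PP, 0% of all genes were called by edgeR, although 2120 had an unadjusted p under 0.05 and DESeq2 called 51. Of the 6, Cxcl14 had an unadjusted p under 0.05 (2.40, SE 1.12, adjusted p = 0.367). For the effect of earlier LPS, LBL over PBL minus LL over PL, 0.0241% of all genes were called, and Cxcl1 (3.63, SE 1.37, adjusted p = 0.244) and Cxcl14 (-2.42, SE 1.1, adjusted p = 0.31) had unadjusted p under 0.05. The interval of that difference was -0.51 to 0.40 for Cxcl16 and -1.95 to 1.01 for Cxcl10.

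How firmly each comparison can be read differs with the sorter. PL and PP were all sorted on the Astrios, and when only the libraries of the sorting day that PL and PP share were kept (2 PL, 5 PP), 5 of 6 genes were called again, with Cxcl10 at 8.27. LBL and PBL were all sorted on the XDP, on different days. They differed in neutrophil markers, of which 7 of 7 tested were called lower in LBL against PBL, where 4.00% of all genes were. In PBL against PBP 7 of 7 were called higher, where 21.5% of all genes were, and in LL against PL 0 of 7 were called. The part of neutrophil transcripts in the Cxcl1 and Cxcl2 values was not tested. LL and PL were sorted on different instruments, and with sorter in the fit, where it is estimated through PBP replicate 5 alone, 0 of 6 genes were called in LL against PL, and the values of the 5 genes called without it ran from -10.45 for Cxcl1 to -0.28 for Cxcl16. In PBL against PBP, XDP libraries alone left 1 PBP library, replicate 5, which was assumed to vary like the libraries of the other groups. Cxcl2, Cxcl10 and Cxcl16 were then called, and Cxcl9 (4.35, adjusted p = 0.0527) and Cxcl1 (3.47, adjusted p = 0.262) were not, although the value of Cxcl9 was larger than with all libraries. Without PBP replicate 5 all 5 were called. In LL against PL the group and the sorter cannot be told apart.

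Levels of different genes were compared per kilobase of exon, as CPM per kb. In the saline groups Cxcl16 was the leading member, at 60.5 ± 12.96 in PBP (SD, n = 5) and 46.6 ± 4.55 in PP (SD, n = 5), with Cxcl10 next at 1.00 ± 0.444 in PBP and 0.694 ± 0.226 in PP. The ranges left that place unseparated from Cxcl14 in PBP, at 0.689 ± 0.386, and from Cxcl9 in PP, at 0.651 ± 0.652. After a first LPS injection Cxcl10 led, at 310 ± 59.3 in PBL and 174 ± 97.3 in PL (n = 4), and Cxcl16 followed at 126 ± 31.8 in PBL and 106 ± 23.2 in PL. PL replicate 2 kept the saline order: its Cxcl10 level per kb, 32.6, was the lowest of PL and lay under every Cxcl16 level. In LBL and LL the order was that of saline again, with Cxcl16 at 61.2 ± 6.25 and 53.5 ± 7.93 and Cxcl10 at 11.1 ± 6.95 and 8.42 ± 8.76.

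As a share of the per-length level of all 6 genes in a library, Cxcl10 had a median of 11.1% in LBL, 7.86% in LL, 69.6% in PBL, 60.9% in PL, 1.4% in PBP and 1.3% in PP. The other 4 genes were minor throughout. Cxcl2 stood at 4.04 ± 1.397 CPM per kb in PBL and 5.29 ± 3.13 in PL, Cxcl9 at 5.46 ± 2.42 in PBL and 4.17 ± 1.79 in PL, and Cxcl1 at 1.02 ± 0.416 in PBL and 2.81 ± 1.52 in PL. The ranges of Cxcl2 and Cxcl9 overlapped in both groups.

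Libraries of a group varied together in some of the genes. PL replicate 2 was the lowest PL library for Cxcl1, Cxcl2, Cxcl9, Cxcl10 and Cxcl16, and all 5 were called in PL against PP and in LL against PL without it. LL replicate 5 was the highest LL library for Cxcl9, Cxcl10 and Cxcl16 but the lowest for Cxcl2. It was sorted on day 1 with 4 LBL libraries, the other 4 LL libraries on day 2 with LBL replicate 5. Within day 1 Cxcl10 was at 10.1 to 48.7 CPM in LBL and at 54.0 CPM in LL, and within day 2 at 32.8 CPM in LBL and at 7.89 to 14.0 CPM in LL.

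**Figure D4:**
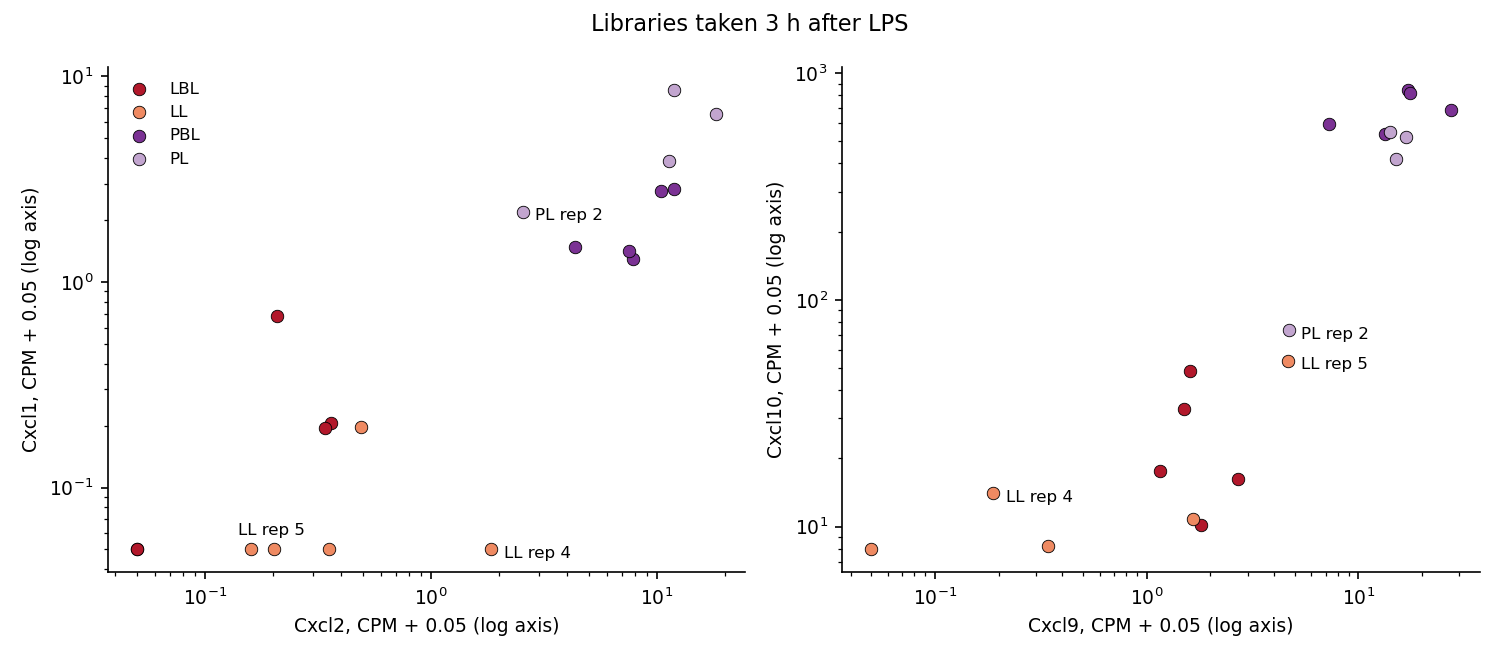
Cxcl1 against Cxcl2 and Cxcl10 against Cxcl9 in the libraries taken 3 h after LPS, as CPM + 0.05 on log axes, with points for libraries coloured by group. PBL and PL libraries occupy the upper right of each panel, PL replicate 2 lies lowest among PL, and LL replicate 5 lies beside it in Cxcl9 and Cxcl10 but not in Cxcl1 and Cxcl2.

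Of 9 other CXC ligand genes, 8 were in the table and 4 passed the filter: Cxcl11, Cxcl13, Cxcl17 and Pf4. Cxcl11, the third interferon-induced ligand of CXCR3, was called in the directions of Cxcl10 in the comparisons of first LPS with saline and of repeated with first LPS. It was at 4.62 to 8.23 CPM in PBL and 0.535 to 5.68 CPM in PL, against 0 in every PBP library and at most 0.126 CPM in PP. Its log2 fold change was 5.55 in PL against PP (SE 1.00, adjusted p = 7.45e-05, edgeR), -4.31 in LL against PL (SE 0.887, adjusted p = 0.00365) and -5.59 in LBL against PBL (SE 0.916, adjusted p = 0.000128). After repeated LPS it was not called above saline (1.24, SE 1.22, adjusted p = 0.464, edgeR, in LL against PP and 2.95, SE 1.48, adjusted p = 0.139, in LBL against PBP). Cxcl10 was called there, at 3.61 and 3.44, but not with sorter in the fit. The difference between the 2 genes was not tested. LL against PL, LL against PP and LBL against PBP set different sorters against each other, apart from PBP replicate 5.

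Cxcl13, whose product attracts B cells, was called higher in PBL against PBP (2.41, adjusted p = 0.00456, edgeR) and in LL against PP (1.63, adjusted p = 0.0435), and not in LL against PL (0.45, adjusted p = 0.792). Pf4, a marker of border-associated macrophages, was called lower in PBL against PL (-2.26, adjusted p = 0.000244) and in LBL against LL (-2.10, adjusted p = 0.00183). The 8 markers of those macrophages, Pf4 among them, summed to 12.9 to 25.7 CPM in LBL and 57.9 to 94.4 CPM in LL. Cxcl17 was not called in these comparisons. The neutrophil attractants Cxcl3 and Cxcl5 held 8 and 17 counts in all libraries and were not tested. Apart from LBL against LL, the comparisons named here for Cxcl13 and Pf4 set different sorters against each other, save PBP replicate 5.

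The receptor genes of these ligands were at low levels in the sorted cells, at most 9.01 CPM in any library. Of 8 receptor genes, 7 were in the table and 4 passed the filter. Cxcr2, the receptor of CXCL1 and CXCL2, held 40 counts over 11 libraries, and Cxcr3, the receptor of CXCL9 and CXCL10, lay between 0.529 and 7.78 CPM. Cxcr6, the receptor of CXCL16, held 618 counts over 28 libraries and lay between 0 and 9.01 CPM. Cxcr5, the receptor of CXCL13, was called higher in PBL against PBP (3.56, SE 0.811, adjusted p = 0.000608, edgeR), with 1.09 to 8.85 CPM in PBL and 0 to 0.447 CPM in PBP. Of its 98 counts in PBL 57 were in replicate 4, and the other PBL libraries were at 1.09 to 2.21 CPM. Cxcr5 was 1 of 4 receptors tested there, where 21.5% of all genes were called higher, so that share is near the background. No other receptor was called in PL against PP, PBL against PBP, LL against PL or LBL against PBL.

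Genes of the NF-kB pathway were listed because Cxcl1 and Cxcl2 lie downstream of it. Of 15 tested, 12 rose and 1 fell in PL against PP (median log2 fold change 1.13), and 13 rose and 2 fell in PBL against PBP (median 1.04). Of all genes tested, 14.2% were called higher and 11.9% lower in PL against PP, and 21.5% were called higher and 21.5% lower in PBL against PBP. Nfkbia, which encodes the inhibitor that retains NF-kB outside the nucleus, rose by 3.52 in PL against PP, and the receptor gene Tlr4 fell by 1.06 on the log2 scale. In LL against PL 0 rose and 6 fell (median -0.56), and in LBL against PBL 1 rose and 8 fell (median -0.74), where 0.752% of all genes were called higher and 2.03% lower in LL against PL and 2.74% higher and 4.00% lower in LBL against PBL. Tnfaip3, which encodes the NF-kB inhibitor A20, fell by 3.11 in LL against PL and by 3.14 in LBL against PBL, while the adaptor gene Myd88 changed by -0.26 (adjusted p = 0.35) and -0.06 (adjusted p = 0.859). LL and PL were sorted on different instruments, and with sorter in the fit 11 of all genes were called there, against 463 without it. PBL against PBP crossed sorters too, apart from PBP replicate 5, with 2224 called against 7163.

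Of 15 genes of the interferon pathway, 13 were tested. Of these, 8 rose and 1 fell in PL against PP (median 0.37) and 7 rose and 2 fell in PBL against PBP (median 0.30), beside the same shares of all genes, 14.2% and 11.9% in PL against PP and 21.5% and 21.5% in PBL against PBP. The transcription factor gene Irf1 rose by 2.08 and 2.21 in these comparisons and Stat2 by 1.93 and 2.34, whereas Irf8 fell by 0.88 and 0.89 on the log2 scale. In LL against PL 6 fell (median -0.39) and in LBL against PBL 4 fell (median -0.20), beside 2.03% and 4.00% of all genes, and 0 were called higher in either. Irf1 fell by 1.58 in LL against PL and by 1.47 in LBL against PBL. The same limit of sorter holds for these genes in LL against PL and PBL against PBP. The interferon genes Ifnb1 and Ifng did not pass the filter.

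For each chemokine gene, the 3 genes with the nearest pattern over the 6 groups were found by the root mean square difference of group means of log2 CPM, each centred on the gene's own mean. Cxcl1 lay nearest to Csf3, which encodes the neutrophil growth factor G-CSF, at a difference of 0.0834, then to Adm and Mmp13. Csf3 averaged 2.24 ± 1.78 CPM in PBL and 4.65 ± 2.65 CPM in PL and held 0 counts in LL, PBP and PP. Cxcl2 lay nearest to Stx11 (0.476), Dusp2 and Gm11110, and Cxcl9 to Tnfaip3 (0.302), Mir155hg and Ccrl2.

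Cxcl10 lay nearest to Il12b (0.561), which encodes a subunit of interleukin 12, then to Rnd1 and Cd69. For Cxcl16 the nearest gene was Rel, an NF-kB subunit gene, at 0.0541, followed by Optn and by Zmynd15, which overlaps Cxcl16. Rel averaged 169 ± 20.5 CPM in PBL and 159 ± 39.96 CPM in PL, against 90.5 ± 12.5 CPM in PBP and 72.5 ± 11.4 CPM in PP. Cxcl14 lay nearest to Ptpru (0.108), Slc7a10 and 4930419G24Rik, none of which was called in PL against PP. Genes of low count and small change have small differences in this measure, so the distances are not comparable between members. Among the 6, Cxcl1 and Cxcl9 were the nearest pair (0.543) and Cxcl10 and Cxcl14 the farthest (3.24), with the same limit.

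**Figure D5:**
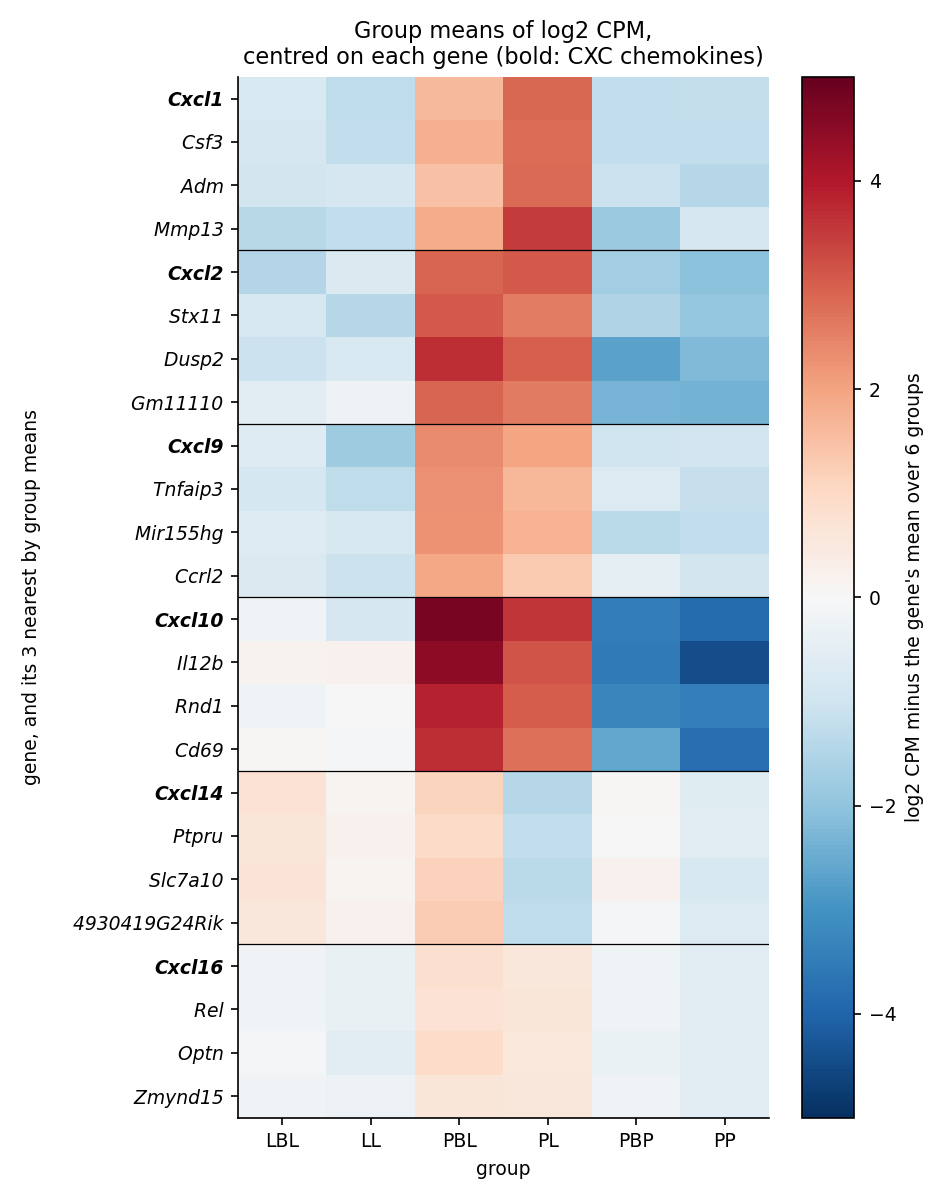
Group means of log2 CPM, centred on each gene's mean over the 6 groups, for the 6 CXC chemokine genes (bold) and the 3 genes nearest to each; colour gives the difference in log2 units. Cxcl10 spans -3.85 in PP to 4.76 in PBL with LBL at -0.22 and LL at -0.84, and Cxcl9 stands at -0.64 in LBL and -1.76 in LL, against -1 in PBP and -0.95 in PP.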

How the data were processed

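Whole-number read counts per gene, not normalized, were deposited by the authors in 1 table. The submitters' processing notes name FastQC 0.11.9, cutadapt 2.10, TopHat, SAMtools 1.10, Picard 2.13.2, HTSeq 0.11.0 and GRCm39, without role or order; the gene annotation and the strand setting are not stated in the labels. RNA quality scores were deposited in a second table. The reference annotation at hand is of GRCm38, so it was used for gene neighbours, exon lengths and sequences, never for coordinates of the counts.

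Genes passing filterByExpr were fitted with edgeR 4.0.16 in R 4.3.3 (TMM, quasi-likelihood, robust), all 29 libraries, 1 coefficient per group, 23 residual degrees of freedom, two-sided p adjusted by Benjamini-Hochberg over 16632 genes. The fit was tested on simulated data. DESeq2 1.42.0 and limma 3.58.1 voom were alternatives. The 56 pairs of libraries within a group differed beyond sampling noise. Intervals on counts are exact and cover counting error only. Named genes are the 6 members, the listed pathway genes and the 3 nearest genes to each member. Members and lists were chosen with earlier results of these data known.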

Additional observations from a re-analysis of the deposited data

Results flagged for a closer look

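Dixon's criterion was applied to 35 gene-by-group sets of 4 or 5 libraries that were not all equal. It set 7 single libraries apart from the rest of their group. The criterion flags about 1 in 20 sets by chance where values are normally distributed. That rate does not hold for sets of few counts, and a set with reads in only 1 library is always flagged. Of the 7 libraries set apart, 5 rest on 1 to 4 reads. Cxcl1 stood at 0.631 CPM (4 counts) in LBL replicate 1, against 0 to 0.155 CPM in the other LBL libraries. It was at 0.146 CPM (1 count) in LL replicate 1, at 0.155 CPM (1 count) in PBP replicate 5 and at 0.252 CPM (2 counts) in PP replicate 5, with 0 counts in the other libraries of those groups. Cxcl2 was at 0.514 CPM (4 counts) in PBP replicate 2 and at 0 in the other PBP libraries.

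The other 2 rest on more reads. Cxcl2 was at 1.80 CPM (13 counts) in LL replicate 4, against 0.11 to 0.438 CPM (1 to 3 counts) in the other LL libraries. Cxcl10 was at 54.0 CPM in LL replicate 5, against 7.88 to 14.0 CPM in the others. LL replicate 5 was sorted on day 1 and the others on day 2; whether the day has a part in its level was not tested.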

How the results depend on the processing

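The number of the 6 genes called did not change in any comparison when 1 library at a time was left out, under RLE scaling, without the filter on low counts, with the replicate block or with the RNA quality number in the fit. Replicate numbers do not pair the samples: correlations of same-numbered libraries ran from -0.31 to 0.29, and the block turned only the sign of Cxcl9 in LBL over PBL minus LL over PL (0.29). DESeq2 gave no adjusted p to Cxcl1 in LBL against PBL or to Cxcl1, Cxcl2 and Cxcl14 in LBL against LL. It also gave none to Cxcl1, Cxcl2, Cxcl9 and Cxcl14 in PBL over PBP minus PL over PP. Limma voom called 3 in PBL against PL and 1 in LL against PP, and the fit of only the 2 groups compared also called 1 in LL against PP. Fitting only the groups compared called 4 in PBL against PBP and 4 in LBL against PBL, and in PBL against PL it called Cxcl1 (-1.43, adjusted p = 0.0313), with Cxcl14 below its filter. Sorter in the fit left 3 in PBL against PBP (3 also with XDP libraries only) and 0 in LL against PL, PBL against PL, LL against PP and LBL against PBP. Of 1264 member values, 1217 kept side and sign, 14 lost and 3 gained a call, and 30 uncalled values changed sign. Signs turned in Cxcl9 in PBP against PP (0.09) and LBL over PBL minus LL over PL (1.14) under voom, and with sorter in Cxcl2 in PBL against PL (2.63), Cxcl9 (0.46) and Cxcl14 (-0.18) in LL against PP, and Cxcl16 in PBL over PBP minus PL over PP (0.46). Leaving out 1 library, the values that crossed 0 ranged as follows. In LBL over PBL minus LL over PL: Cxcl9 -0.38 to 1.07, Cxcl10 -0.88 to 0.43, Cxcl16 -0.16 to 0.09. In PBL over PBP minus PL over PP: Cxcl1 -2.78 to 0.56, Cxcl10 -0.04 to 0.58. In LBL against LL: Cxcl9 -0.01 to 1.45, Cxcl10 -0.02 to 1.27. In LBL against PBP: Cxcl2 -0.01 to 3.21, Cxcl16 -0.10 to 0.10. In PBP against PP: Cxcl1 -2.04 to 1.33, Cxcl2 0 to 3.15. In LL against PP: Cxcl1 -2.04 to 1.31, Cxcl9 -1.62 to 0.01. The cause was not tested.

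Counts over all genes moved more. With sorter, 2224 were called in PBL against PBP (7163 without it), 11 in LL against PL (463), 3 in PBL against PL (3673), 1181 in LL against PP (5340), 1609 in LBL against PBP (4684) and 330 in LBL against LL (201). DESeq2 called 717 in LL against PL, 276 in PBP against PP (88) and 429 in LBL against LL. The RNA quality number gave 638 in LBL against PBL (1121), 2297 in PBL against PL and 326 in LBL against LL. XDP libraries alone gave 2083 in PBL against PBP. Without the filter on low counts, 126 were called in LBL against LL and 11 in PBL over PBP minus PL over PP. That contrast had 0 calls with edgeR, 51 with DESeq2 and 740 without PBP replicate 5. LBL over PBL minus LL over PL had 4, and 31 with DESeq2 and 35 with only its own groups. With 1 library left out the counts went down to 276 in LL against PL, and ran from 669 to 1189 in LBL against PBL, 49 to 105 in PBP against PP, 2326 to 4098 in PBL against PL and 85 to 284 in LBL against LL. Depth limits Cxcl1 and Cxcl2 most: in saline groups they held 0 to 4 counts a group.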

Other observations

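Within a library, Cxcl2 held 3.00 to 6.29 counts per Cxcl1 count in PBL and 1.17 to 2.93 in PL, ranges that did not overlap; over the group the ratio was 4.33 in PBL and 2.11 in PL. This ratio was looked at after the values were seen and was not tested. The gap between 2.93 and 3.00 is narrow and rests on few reads. PBL and PL were sorted on different instruments. Neutrophil markers were called higher in PBL against PL, 7 of 7 tested, where 11.0% of all genes were. Cxcl10 held 25.3 to 82.8 counts per Cxcl9 count in PBL and 15.8 to 39.0 in PL, with overlap, and 5.78 to 31.4 in LBL.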
